A study of Mus musculus with 12 samples.

Results

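The Schlafen genes form a family that lies in a single cluster on mouse chromosome 11. Here 6 of them were followed in CD8+ T cells, namely Slfn1, Slfn2, Slfn3, Slfn5, Slfn8 and Slfn9. They were taken from the raw count matrix by their gene symbol. Each symbol had 1 row among the 13780 genes listed, and all 6 passed the filter on low counts. RNA-seq was done on 12 libraries of CD8+ T cells that magnetic beads had selected from the spleens of young adult C57BL/6J mice, with 4 libraries in each of 3 groups. Naive cells were lysed directly after isolation, with no activation and no treatment. The media group was activated for 72 h with anti-CD3/CD28 Dynabeads (aCD3/CD8 in another field of the labels) and 10 U/ml IL-2 in plain media, the vehicle. The lactate group received the same beads and IL-2 with 40 mM sodium lactate added to the media.

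Schlafen proteins restrain cell growth, bind or cut tRNA, and in several members limit virus replication. Their transcription is raised by type I interferon in many cell types. In T cells they are known as a family whose members change between quiescence and activation. Slfn1 and Slfn2 encode short proteins that hold only the core Schlafen fold. Slfn3 encodes a protein of intermediate length, and Slfn5, Slfn8 and Slfn9 encode long forms with an added helicase-like part.

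The cluster, from the start of Slfn5 to the end of Slfn14, spans chr11:82951349-83286726 in the mouse genome build GRCm38. It holds 25 annotated genes in its 335378 bases, 12 of which are in the count table. Slfn5 opens it on the + strand at chr11:82951349-82964840. Slfn9 (chr11:82978390-82991830) and Slfn8 (chr11:83002158-83020810) follow on the - strand. Slfn2 (chr11:83065112-83070678), Slfn1 (chr11:83116849-83122670) and Slfn3 (chr11:83191330-83215154) lie further on and are read from the + strand. All 6 are annotated as protein coding, and the length that the table gives for each equals the union of its annotated exons.

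The members are related in sequence, so the promoter sequences are shown first and the limits on counting beside them. RefSeq promoter windows of 300 bases (250 before the start and 50 after it, GRCm38.p6) were found for all 6 genes. The window of Slfn5 (chr11:82951852-82952151) begins after the gene start given above (chr11:82951349). A match in it thus lies inside the annotated gene. Both strands were searched for 4 motifs: the interferon-stimulated response element (ISRE, GAAANNGAAA), the gamma-activated site (GAS, TTCNNNGAA), the AP-1 site (TGANTCA) and an ETS site (CAGGAAGT). The ETS letters were picked after the sequences had been seen. The ISRE letters were found in the windows of Slfn5, Slfn8 and Slfn9 and not in those of Slfn1, Slfn2 and Slfn3. With the ETS letters it was the reverse: Slfn1 and Slfn2 held 1 match each, Slfn3 held 2, and the 3 long members held none. GAS and AP-1 letters were in none of the 6 windows. Among 32851 RefSeq promoter windows of the same length, 3.44% held the ISRE letters, 3.33% the ETS letters, 8.30% the GAS letters and 7.81% the AP-1 letters. No match overlapped another. A match describes the letters only, and binding was not measured.

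The promoters of Slfn8 and Slfn9 are shown whole because they are the only closely related pair, with an identity of 80.7% against 42.0% to 48.6% for the other pairs. Capitals mark the ISRE letters, read from the opposite strand, at -48 to -39 in Slfn8 (chr11:83020761-83021060, - strand) and at -45 to -36 in Slfn9 (chr11:82991781-82992080, - strand), counted from the RefSeq start as base 0.
Slfn8: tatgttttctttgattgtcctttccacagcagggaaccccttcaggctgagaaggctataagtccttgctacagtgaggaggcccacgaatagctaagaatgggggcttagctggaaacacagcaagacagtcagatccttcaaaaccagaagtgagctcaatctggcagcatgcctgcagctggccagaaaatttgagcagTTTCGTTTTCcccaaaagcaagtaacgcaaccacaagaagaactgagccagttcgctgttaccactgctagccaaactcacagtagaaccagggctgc
Slfn9: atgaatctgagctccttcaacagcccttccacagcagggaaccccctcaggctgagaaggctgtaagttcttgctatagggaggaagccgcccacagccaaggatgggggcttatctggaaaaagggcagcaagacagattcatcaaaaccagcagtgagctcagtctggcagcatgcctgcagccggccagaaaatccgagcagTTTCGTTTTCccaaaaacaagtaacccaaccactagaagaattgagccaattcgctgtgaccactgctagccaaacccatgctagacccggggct

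For the other members the match is shown with 20 bases on either side, to set the 2 kinds of promoter next to each other. Capitals mark the ISRE letters in Slfn5 (-155 to -146, chr11:82951927-82951976) and the ETS letters in Slfn1 (-74 to -67, chr11:83116726-83116773), Slfn2 (-55 to -48, chr11:83065037-83065084) and Slfn3 (-42 to -35, chr11:83191268-83191315, the nearer of its 2 matches). These genes are all on the + strand, and the windows are printed in that direction. The ISRE letters of Slfn5 are on that strand, and the ETS letters in capitals are read from the opposite strand. The farther match of Slfn3, at -60 to -53, is on the + strand and is left in lower case.
Slfn5: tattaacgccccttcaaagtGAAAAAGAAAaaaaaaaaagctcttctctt
Slfn1: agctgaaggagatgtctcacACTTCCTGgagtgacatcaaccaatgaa
Slfn2: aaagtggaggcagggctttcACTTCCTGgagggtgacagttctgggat
Slfn3: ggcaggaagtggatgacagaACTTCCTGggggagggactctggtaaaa

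Related genes can compete for reads. The share of 50-base stretches of a member's transcripts that also occur in another gene was 0.606% for Slfn1 and 4.27% for Slfn2. It was 16.0% for Slfn3, 14.6% for Slfn8 and 11.9% for Slfn9. Slfn8 and Slfn9 shared most with each other and with the pseudogene Slfn10-ps, and Slfn3 shared most with Slfn4. Since only uniquely mapped reads were counted, reads confined to such stretches fall out, and the counts of these members are uncertain to that extent. In Slfn5 the share was 11.1%, most of it with the antisense gene Slfn5os, which covers 8.84% of its exon bases on the opposite strand. Whether the counting used strand is not stated, so reads of Slfn5os cannot be told apart from those of Slfn5. Gm20234, annotated antisense to Slfn2, shares no exon bases with it.

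Library totals ranged from 16439750 to 18601223 counts in naive cells, 15842423 to 20922872 in media and 14726904 to 21478137 in lactate. Library numbers in the labels fall into a low run (naive 1 to 3, media 1 to 3, lactate 1 and 2) and a high run (naive 4, media 4, lactate 3 and 4). Run here means a stretch of library numbers only: the labels name no batch or sequencing run. CD8+ T cell markers were high throughout, with 1991 to 4036 CPM (counts scaled to library size) summed over 6 markers in naive cells, 3095 to 3879 in media and 2303 to 2901 in lactate. The naive libraries also held other spleen cells: 8 myeloid markers summed to 719 to 2269 CPM there, against 0.925 to 4.26 in media and 0.778 to 1.33 in lactate, and 6 B cell markers to 505 to 1226 CPM against 9.36 to 16.6 and 6.10 to 7.70. Naive 4 stood apart. For 10.6% of genes its value lay beyond Dixon's critical value for its group, against 0.538% to 5.41% in the other libraries, and it had the lowest sum of CD8+ T cell markers. Singly, Cd8a (388 CPM) and Cd3g (214 CPM) were lowest there among all libraries. Cd8b1, Cd3d and Cd3e were lowest there only among the naive libraries. Trac, at 412 CPM in naive 4, was above naive 1 (388 CPM) and naive 2 (363 CPM).

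Per length, Slfn2 and Slfn1 made up most of the family's transcripts in every group. Slfn2 is needed for T cells to stay quiescent and protects tRNA from cleavage under oxidative stress. It averaged 558 ± 276 TPM (length-scaled transcript share; SD, n = 4) in naive cells, 123 ± 37.9 in media and 84.4 ± 7.31 in lactate, and was the highest member in each of the 12 libraries. Slfn1, the founding member, which slows T cell growth when overexpressed, came next at 323 ± 106, 53.3 ± 31.6 and 18.7 ± 3.38 TPM. The ranges of Slfn2 and Slfn1 overlapped in naive cells and in media, but Slfn2 was above Slfn1 in all 4 libraries of each of these groups.

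Below these genes the order of levels changed between groups. In naive cells Slfn8 (78.7 ± 38.1 TPM) and Slfn5 (45.4 ± 27.7) had overlapping ranges, and both lay above Slfn9 (5.38 ± 1.05) and Slfn3 (4.34 ± 0.428), which overlapped as well. In media the order was Slfn8 (22.7 ± 5.09), Slfn3 (16.1 ± 1.86), Slfn9 (12.2 ± 1.14) and Slfn5 (1.71 ± 0.550), where Slfn8 and Slfn3 overlapped and the rest did not. In lactate the neighbours Slfn9 (11.7 ± 2.75), Slfn8 (8.43 ± 1.79) and Slfn3 (7.24 ± 1.98) overlapped in turn, and Slfn5 (3.98 ± 0.628), the lowest member in both activated groups, lay below Slfn3 in all 4 libraries although the ranges overlapped.

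The TPM of the 6 genes summed to 738 to 1465 in naive libraries, 157 to 322 in media and 122 to 148 in lactate. Both activated groups thus lay below every naive library. Lactate lay below every media library by a narrow margin, with 148 in lactate 1 and 157 in media 3. These TPM carry no TMM scaling, unlike the CPM, so that margin rests on the scaling used. Slfn2, the largest part of the sum, was higher in lactate 1 (94.3 TPM) than in media 3 (79.1 TPM). The share of Slfn1 in this sum was 31.8% on average in naive cells, 22.3% in media and 14.0% in lactate, while Slfn2 held 53.3%, 53.7% and 62.8%. The share of Slfn9 was 0.583%, 5.70% and 8.64%, and Slfn3 held 0.453%, 7.40% and 5.34%.

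**Figure D1:**
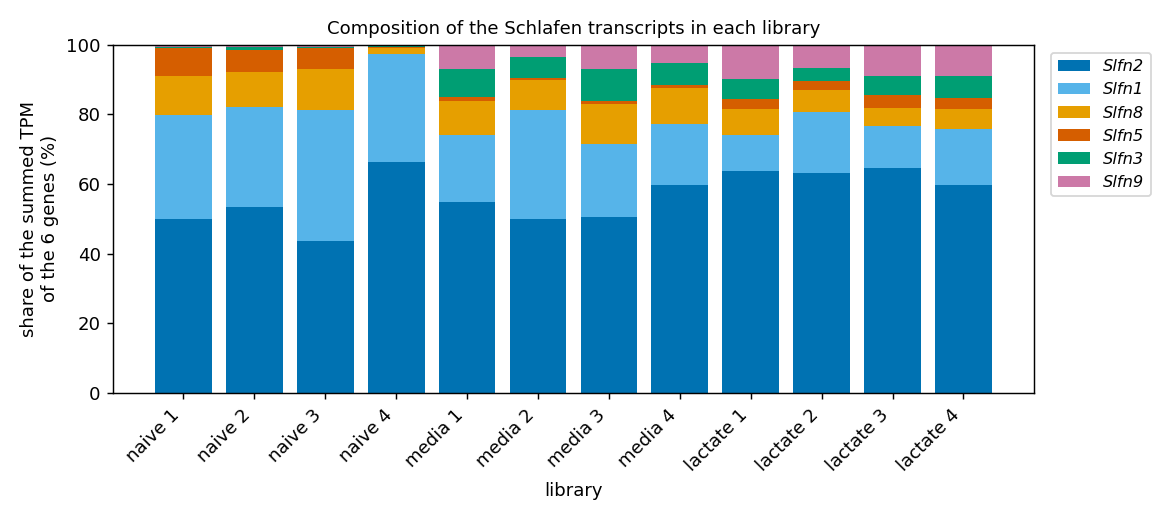
Each bar is 1 library and shows the percentage of the summed TPM of the 6 genes that each gene holds (0% to 100%). Slfn2 and Slfn1 fill most of every bar, Slfn3 and Slfn9 are visible only after activation, and Slfn5 and Slfn8 are nearly absent from the bar of naive 4.

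The comparison of media with naive cells shows how the family differs after 72 h of activation in culture with beads and IL-2, without lactate. Effects of activation and of culture cannot be told apart here. Slfn1, Slfn2, Slfn5 and Slfn8 were lower in activated cells, by 6.12-fold, 4.54-fold, 27.2-fold and 3.54-fold by the fitted fold change, and Slfn3 and Slfn9 were higher, by 3.64-fold and 2.23-fold. All 6 were called, that is, their adjusted p in edgeR's quasi-likelihood test was 0.01 or less. Much of the transcriptome differed between these groups: 57.5% of all 13767 genes tested were called, 28.5% higher and 29.0% lower. The groups did not overlap for 5 of the 6 members, against 61.2% of all genes. Levels in bulk RNA cannot tell fewer cells of a type from less RNA per cell, and the part of other spleen cells in the naive values was not tested.

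**Figure D2:**
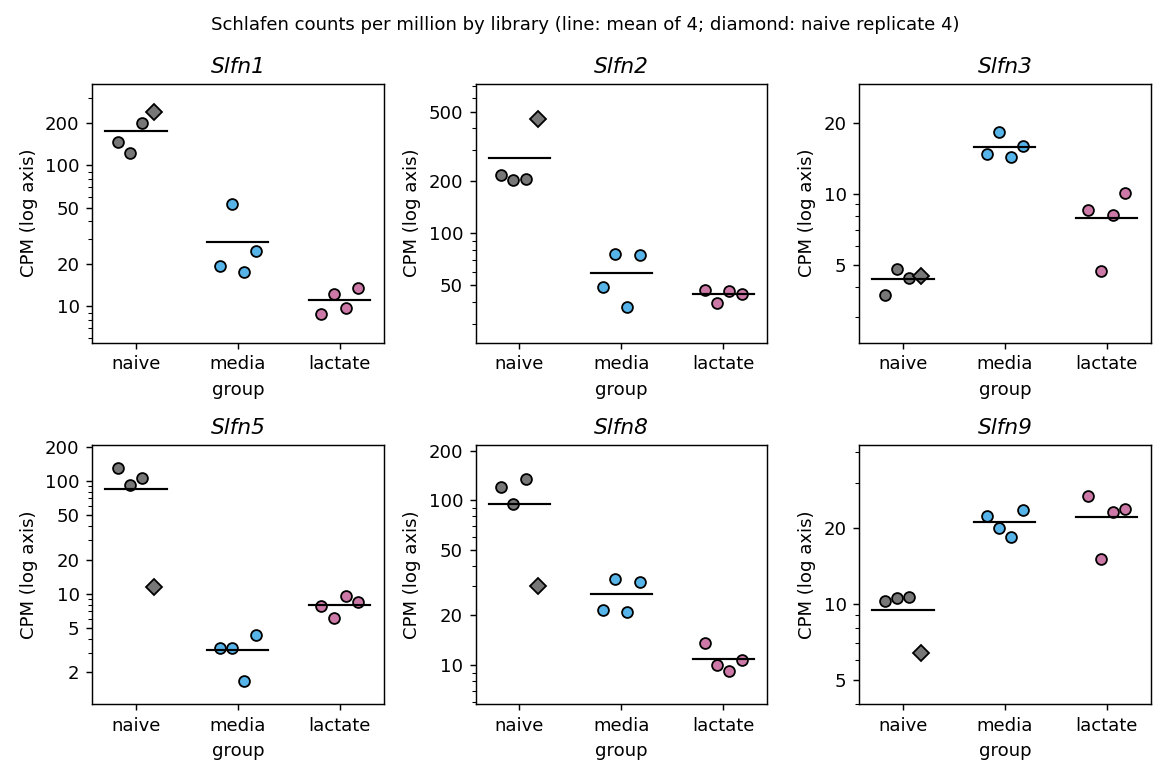
Each panel shows 1 gene, with CPM on a log axis for the 4 libraries of each group, a line at the group mean, and a diamond for naive 4. Slfn1 and Slfn2 descend from naive to activated cells, Slfn3 and Slfn9 ascend, and naive 4 lies below the other naive libraries for Slfn5, Slfn8 and Slfn9.

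Among the short members, Slfn1 stood at 146, 121, 198 and 237 CPM in naive libraries 1 to 4 and at 19.2, 53.3, 17.5 and 24.6 CPM in media 1 to 4. The lowest naive library was above the highest media library. This gave a log2 fold change of -2.61 ± 0.34 (SE; adjusted p = 2.27e-05, edgeR). Slfn2 was measured at 217, 201, 206 and 452 CPM in naive cells and at 48.8, 76.3, 37.4 and 74.5 CPM in media. Its groups were separate too, and naive 4 held more than any other library. The fold change was -2.18 ± 0.29 (log2, adjusted p = 2.49e-05), and -1.82 without naive 4.

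Slfn3, the intermediate member, which has been studied in T cells and in the gut epithelium, moved the other way. Its values were 3.72, 4.81, 4.36 and 4.48 CPM in naive cells and 14.8, 18.3, 14.3 and 15.9 CPM in media, from 66 to 81 and from 254 to 336 counts. Both groups were tight and far apart. On the log2 scale the change was 1.86 ± 0.21 (adjusted p = 7.29e-06), and naive 4 did not stand out.

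Of the long members, Slfn5, a nuclear protein, had the largest drop. Naive libraries 1 to 4 held 130, 91.4, 107 and 11.4 CPM, and media libraries 3.33, 3.27, 1.67 and 4.26 CPM. Naive 4 was thus far nearer to the activated libraries than the other 3 were. Its log2 fold change was -4.76 ± 0.60 (adjusted p = 1.72e-05). It was -5.14 without naive 4 and -5.37 (adjusted p = 1.25e-06) in the low run alone, while the only naive and media libraries of the high run differed by -1.40.

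Slfn8 was at 120, 94.4, 135 and 30.3 CPM in naive cells and at 21.7, 33.1, 20.96 and 31.8 CPM in media. It was the only member whose groups overlapped, since naive 4 was below media 2 and media 4. The log2 fold change of -1.82 ± 0.36 passed in the model (adjusted p = 0.000592), but the exact two-sided permutation test over the 70 arrangements gave p = 0.0857. Without naive 4 the change was -2.12 (adjusted p = 1.20e-06). In the high run the direction was not the same, with media 4 above naive 4 by 0.069 on the log2 scale. Slfn9, by contrast, rose in activated cells from 10.3, 10.6, 10.6 and 6.39 CPM to 22.3, 20.03, 18.3 and 23.5 CPM with no overlap (log2 fold change 1.15 ± 0.20, adjusted p = 0.000255).

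The naive library that stood apart split the family along the same line as the promoter letters, which was noticed after both had been seen. On the log2 CPM scale, naive 4 minus the mean of naive 1 to 3 was -3.24 for Slfn5, -1.92 for Slfn8 and -0.71 for Slfn9, the members with ISRE letters. The same difference was 0.64 for Slfn1, 1.12 for Slfn2 and 0.067 for Slfn3, the members with ETS letters. Over 36 interferon-stimulated genes its median was -1.86, over 24 T cell quiescence genes 0.094 and over all genes tested -0.023. Naive 4 was also the only naive library of the high run. What made it differ was not tested.

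**Figure D3:**
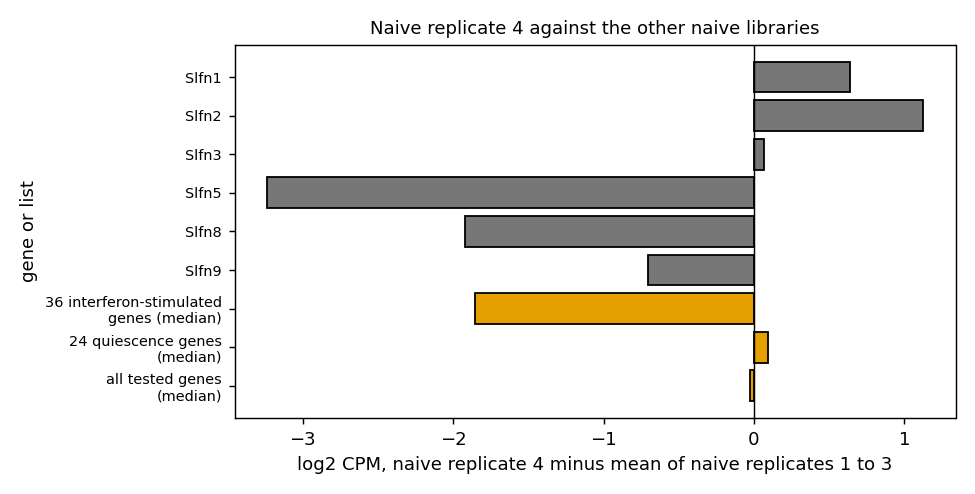
Bars show log2 CPM in naive 4 minus the mean of naive 1 to 3, for each member (grey) and as the median of gene lists (orange). Slfn5, Slfn8, Slfn9 and the interferon-stimulated genes extend below 0, and Slfn1 and Slfn2 extend above it.

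The comparison of lactate with media asks what sodium lactate changes in activated cells, and the members diverged. Slfn1 and Slfn3 were lower with lactate, by 2.58-fold and 2.01-fold by the fitted fold change, and both were called. Slfn8 was 2.47-fold lower and Slfn5 2.55-fold higher with no overlap between groups, but neither passed the threshold in the model of all 12 libraries. Slfn2 and Slfn9 overlapped between the groups. Thus 2 of 6 members were called, both lower, where 25.1% of all genes tested were called, 13.9% higher and 11.1% lower. The groups did not overlap for 4 members, against 44.7% of all genes, and with 6 genes neither count is a result about the family.

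Slfn1 was measured at 19.2, 53.3, 17.5 and 24.6 CPM in media 1 to 4 and at 8.81, 12.2, 9.76 and 13.4 CPM in lactate 1 to 4. Every lactate library was below every media library, and media 2 was the highest. The model put the log2 fold change at -1.37 ± 0.34 (adjusted p = 0.00704, edgeR), and the exact two-sided permutation p was 0.0286, the smallest that 4 against 4 samples can give. Without media 2 the change was -0.88 (adjusted p = 0.0156). The call was also lost without media 4 (adjusted p = 0.0103) and without any of the 4 lactate libraries (0.0125 to 0.0247), with changes of -1.27 to -1.47 in these fits.

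Slfn2 stood at 48.8, 76.3, 37.4 and 74.5 CPM in media and at 47.3, 39.6, 46.4 and 44.6 CPM in lactate. The lactate libraries all fell within the range of the media libraries. Its log2 fold change was -0.41 ± 0.28 (95% interval -1.02 to 0.20, adjusted p = 0.267), so a fall of 1.02 or a rise of 0.20 would both lie within the error. The log2 TPM ratio of Slfn1 to Slfn2 was -1.76 to -0.68 in media and -2.59 to -1.86 in lactate, with no overlap.

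Slfn3 had 14.8, 18.3, 14.3 and 15.9 CPM in media and 8.56, 4.72, 8.14 and 10.0 CPM in lactate. The groups were separate, with lactate 2 the lowest. With a log2 fold change of -1.01 ± 0.21, the adjusted p was 0.00233, and it stayed below 0.01 in every alternative fit, with changes of -1.15 to -0.83. The mean with lactate (7.86 CPM) thus lay between those of naive cells (4.34 CPM) and of media (15.8 CPM), but lactate and naive libraries overlapped.

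Slfn5 went in the opposite direction from Slfn1, Slfn3 and Slfn8. It was at 3.33, 3.27, 1.67 and 4.26 CPM in media, which is 30 to 72 counts, and at 7.84, 6.08, 9.62 and 8.53 CPM in lactate, which is 116 to 177 counts. All 4 lactate libraries were above all 4 media libraries (exact two-sided permutation p = 0.0286, again the smallest possible). The log2 fold change of 1.35 ± 0.57 missed the threshold in the model (95% interval 0.12 to 2.58, adjusted p = 0.0757). That model takes its spread from the naive libraries too. Without naive 4 the change was 1.35 with an adjusted p of 0.000670. With the media and lactate groups alone it was 1.36 (0.00154), and with the donor as a replicate block in these same groups 1.33 (0.00223). It missed the threshold in the other fits, with adjusted p of 0.0236 in DESeq2, 0.111 with a block by title number and 0.378 in limma voom, and of 0.0826 to 0.174 without any 1 of the media or lactate libraries.

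Slfn8 was at 21.7, 33.1, 20.96 and 31.8 CPM in media and at 13.6, 9.96, 9.27 and 10.7 CPM in lactate, again with no overlap. Its log2 fold change was -1.30 ± 0.36 and fell just short of the threshold (adjusted p = 0.0130). It passed without naive 4 (-1.30, 0.000190), with the groups compared alone (-1.29, 0.000382), with the donor as a replicate block (-1.10, 0.00213) and in DESeq2 (-1.34, 0.000717). It did not pass in limma voom (0.0669), with a block by title number (0.0229) or without any 1 of the media or lactate libraries (0.0171 to 0.0414). Leaving out naive 4 brought the members called to 4, with Slfn1, Slfn3 and Slfn8 lower and Slfn5 higher. So did the media and lactate groups alone, and the donor block, which used those groups only. Without media 2, media 4 or any of the 4 lactate libraries 1 member was left. The genes called over all tested moved too. They were 3451 of 13767 in the model reported, 4845 of 13627 without naive 4 and 4603 of 12460 with the groups compared alone. With the donor block they were 3654 of 12460. In the fits that left 1 member they were 2252 to 3140. These counts of members are thus not a result about the family.

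Slfn9 did not follow its neighbour Slfn8, with which it shares its strand and much of its promoter sequence. It had 22.3, 20.03, 18.3 and 23.5 CPM in media and 26.6, 15.0, 23.2 and 23.8 CPM in lactate. The groups overlapped at both ends. Its log2 fold change was 0.07 ± 0.20 (95% interval -0.36 to 0.50, adjusted p = 0.804). The log2 TPM ratio of Slfn8 to Slfn9 was therefore 0.50 to 1.27 in media and -0.78 to -0.05 in lactate, and 2.79 to 4.21 in naive cells. The pseudogene Slfn10-ps, which lies beside Slfn8 and shares sequence with both, went from 11.2 to 18.0 CPM in media to 5.29 to 11.02 CPM in lactate (log2 fold change -0.64, adjusted p = 0.0940).

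**Figure D4:**
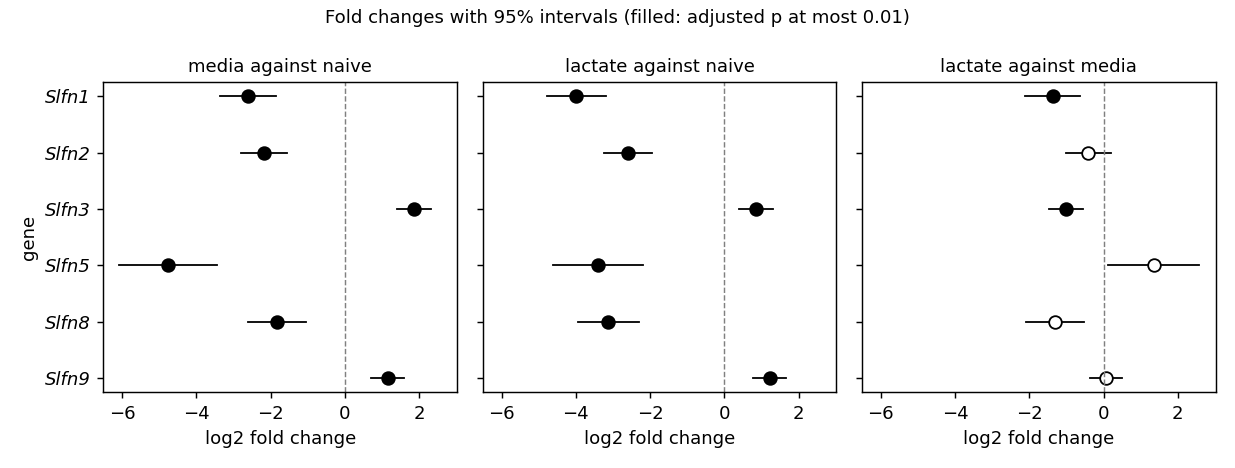
Points give the log2 fold change of each gene in the 3 comparisons and lines its 95% interval, with filled points for an adjusted p of at most 0.01. In lactate against media the filled points are Slfn1 and Slfn3, Slfn5 lies at 1.35 with a wide interval, and the intervals of Slfn2 and Slfn9 cross 0.

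Media and lactate libraries with the same donor tag in the same run could be set side by side for 3 donors. The tag WT1 was on lactate libraries of both runs, and WT2 on media libraries of both runs. The labels do not say whether a tag names the same mouse in both runs. In log2 CPM, lactate minus media was -1.11, -0.52 and -0.87 for Slfn1 in donors WT1 and WT3 of the low run and WT2 of the high run. For Slfn3 it was -0.78, -1.57 and -0.66, and for Slfn8 -0.67, -1.07 and -1.56. Slfn5 gave 1.21, 1.80 and 0.98. These 4 members kept 1 direction in all 3 donors. Slfn2 (-0.043, 0.083 and -0.74) and Slfn9 (0.25, -0.29 and 0.015) did not.

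**Figure D5:**
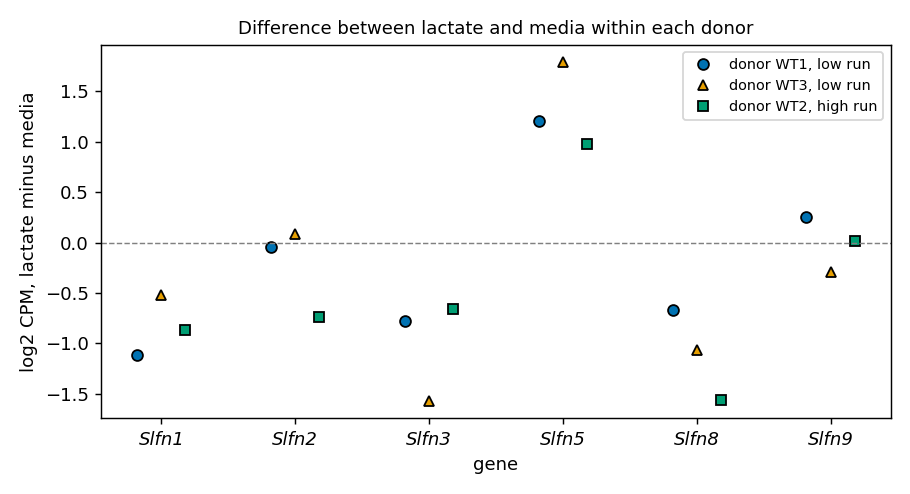
Each point is the difference in log2 CPM between the lactate and the media library of 1 donor. All 3 points lie below 0 for Slfn1, Slfn3 and Slfn8 and above 0 for Slfn5, and they lie on both sides for Slfn2 and Slfn9.

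Within the library runs, the mean log2 differences of low and high run were -1.33 and -1.09 for Slfn1, -0.26 and -0.71 for Slfn2, -1.29 and -0.81 for Slfn3, 1.35 and 1.07 for Slfn5, and -1.08 and -1.66 for Slfn8. Slfn9 had -0.013 and -0.0021. The sign was thus the same in both runs for each of Slfn1, Slfn2, Slfn3, Slfn5 and Slfn8. The media control held no added salt, so effects of lactate, of sodium and of osmolarity cannot be told apart.

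Lactate against naive cells shares the naive libraries with the first comparison and the lactate libraries with the second, so its values are given side by side and not as further evidence. All 6 members were called, 4 lower and 2 higher, where 65.0% of all genes were called, 33.0% higher and 32.0% lower. The groups did not overlap for 5 members, against 67.8% of all genes. The log2 fold changes were -3.98 ± 0.37 for Slfn1, -2.60 ± 0.29 for Slfn2, -3.41 ± 0.56 for Slfn5, -3.12 ± 0.38 for Slfn8 and 1.23 ± 0.20 for Slfn9. For Slfn5, the low run alone gave -4.03 (adjusted p = 7.53e-06), and the high run differed by -0.33, since naive 4 was at 11.4 CPM and lactate 3 and 4 at 9.62 and 8.53 CPM.

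Slfn3 was the member whose place between naive and lactate was least certain. Its log2 fold change was 0.86 ± 0.21 (adjusted p = 0.00269), but lactate 2, at 4.72 CPM, fell below naive 2, at 4.81 CPM (exact permutation p = 0.0571). The call was lost without naive 1, naive 3, lactate 3 or lactate 4 (adjusted p = 0.0112, 0.0115, 0.0108 and 0.0172) and in the low run alone (0.57, adjusted p = 0.0816).

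Of the Schlafen genes outside the 6, Slfn4 and Slfn14 were nearly absent from activated cells, and Slfn10-ps averaged 11.3 CPM in naive cells, 14.3 in media and 9.12 in lactate and was not called in any comparison. Slfn4, which is known from myeloid cells, had 324, 333, 128 and 394 counts in the naive libraries, 4, 0, 2 and 3 in media and 1, 1, 2 and 2 in lactate. Slfn14, a ribonuclease of platelets and red cell precursors, had 85, 485, 32 and 5 counts in naive cells, 1 count in all media libraries together and 2 in all lactate libraries. The naive libraries took the same order for 4 red cell markers, which summed to 933, 3369, 378 and 84.1 CPM. The myeloid markers Csf1r (205 to 918 CPM) and Mpeg1 (232 to 726 CPM) were also present in all naive libraries, and Csf3r was at 0 in all 8 activated libraries. Slfn4 was highest in naive 4, at 22.1 CPM, and lowest in naive 3, at 6.90 CPM. The 8 myeloid markers had their lowest sum in naive 4 (2269, 1730, 838 and 719 CPM in naive 1 to 4), but singly they did not share an order. Csf1r, Mpeg1, Adgre1 and Fcgr3 were lowest in naive 4. Lyz2, Itgam, Cd14 and Csf3r were lowest in naive 3, as Slfn4 was. The part of other cells in these values was not tested.

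Interferon is a known inducer of the family, so 36 interferon-stimulated genes were set beside it. In lactate against media 15 were lower, 1 was higher and 20 were not called, with a median log2 fold change of -1.55 against -0.0016 over all genes, of which 11.1% were lower and 13.9% higher. Ifi44, at 0 in every lactate library, does not move this median when set at its bound of -3.68 (a floor of 3 counts over the group). Xaf1, a proapoptotic factor, fell from 16.9 to 2.64 CPM (log2 fold change -2.68, adjusted p = 0.00103), and Ifi35 rose from 38.0 to 54.6 CPM (0.52, adjusted p = 0.00298). Slfn1 and Slfn3, which were called lower, thus had the direction of most called genes of the list, and so did the fitted change of Slfn8 (-1.30, not called). The 3 members with ISRE letters did not move alike, with fitted changes of 1.35 for Slfn5, -1.30 for Slfn8 and 0.07 for Slfn9, none of them called. Against naive cells, 25 of the 36 were lower and 2 higher in media (median -1.58, where 29.0% of all genes were lower), with Ifit3, an antiviral protein, at 0.595 against 18.7 CPM and the RNA sensor regulator Dhx58 at 84.1 against 33.6 CPM. In lactate 31 were lower than in naive cells and 5 were not called (median -2.77, where 32.0% of all genes were lower), and Oasl2 went from 29.2 to 0.145 CPM.

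Among 18 interferon receptor and signalling genes, 7 were lower and 2 higher with lactate than in media (median log2 fold change -0.56), beside 11.1% lower and 13.9% higher over all genes. Irf7, the factor that amplifies type I interferon, fell from 23.2 to 3.77 CPM (-2.62, adjusted p = 0.000317), and Socs1, an inhibitor of cytokine signalling, rose from 40.9 to 112 CPM (1.45, adjusted p = 0.00444). In media against naive cells 6 were lower and 12 were not called (median -0.42), beside 29.0% lower over all genes, the largest fall being that of the receptor chain Ifngr2, from 79.3 to 14.7 CPM (-2.43). In lactate against naive cells 13 were lower and 2 higher, beside 32.0% and 33.0% over all genes.

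T cell quiescence genes, to which Slfn2 is tied by its function, were also compared. Of 24, 9 were lower with lactate than in media and 15 were not called, with a median of -0.55, where 11.1% of all genes were lower. In media 15 were lower and 2 higher than in naive cells (median -1.32), against 29.0% and 28.5% of all genes. Klf2, a factor that keeps T cells quiescent, fell from 1804 to 107 CPM (-4.07), whereas Rb1, which restrains cell cycle entry, rose from 86.9 to 184 CPM (1.08). In lactate 19 of 24 were lower than in naive cells, against 32.0% of all genes.

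Of 8 genes of tRNA cleavage and protection, 4 were tested. With lactate 3 were higher than in media and 1 was not called (median 0.69), where 13.9% of all genes were higher. Elac2, which trims the ends of tRNA precursors, went from 35.8 to 83.2 CPM (1.22, adjusted p = 0.000104). Nsun2, which methylates tRNA and thereby shields it from cleavage, was at 145 CPM in naive cells, 238 in media and 443 in lactate.

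The genes on either side of the cluster were compared as well. Of 13 genes beside the cluster, 8 were tested, of which 1 was called higher with lactate than in media and 7 were not called (median 0.25), a share near the 13.9% called higher over all genes. This was Nle1, a factor of ribosome assembly that lies upstream of Slfn5 with Unc45b between them, which rose from 21.5 to 48.7 CPM (1.18, adjusted p = 6.36e-05). Inside the cluster, the log2 fold changes from Slfn5 onwards were 1.35, then 0.07 for Slfn9, -1.30 for Slfn8, -0.64 for Slfn10-ps, -0.41 for Slfn2, -1.37 for Slfn1 and -1.01 for Slfn3. In media against naive cells 1 flanking gene was higher and 2 lower, among them Rffl (-0.77), where 28.5% of all genes were higher and 29.0% lower. In lactate against naive cells 3 were higher, among them Lig3 (0.55), where 33.0% of all genes were higher.

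Across libraries the members paired up in different ways before and after the naive libraries were left out. Over all 12 libraries Pearson's r of log2 CPM was 0.95 between Slfn1 and Slfn2 and 0.86 between Slfn1 and Slfn8, and -0.89 between Slfn2 and Slfn9. Over the 8 activated libraries the highest values were 0.88 between Slfn3 and Slfn8 and 0.86 between Slfn1 and Slfn8, and Slfn5 had -0.73 with Slfn8. These values describe libraries that share groups and carry no test. The gene most like each member over the 12 libraries was Dgka for Slfn1 (0.997), Smap2 for Slfn2 (0.991) and Tspan5 for Slfn3 (0.975). For the long members it was Pepd for Slfn5 (0.986), Cdh24 for Slfn8 (0.986) and Ptpn7 for Slfn9 (0.983). Over the 8 activated libraries it was Zbp1 for Slfn1 (0.993), Dedd2 for Slfn2 (0.983) and Hnrnpul1 for Slfn3 (0.992). For the long members it was Gm26640 for Slfn5 (0.993), Sntb2 for Slfn8 (0.986) and Ppfibp1 for Slfn9 (0.969).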

How the data were processed

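RNA-seq was measured in 12 libraries. Per the methods and the submitters' processing notes, base calls were converted with bcl2fastq 2.20.0.422, reads of a stranded mRNA library were aligned to GRCm38 with STAR 2.7.5b, PCR duplicates were removed, and uniquely mapped reads were assigned to exons with featureCounts. The authors deposited raw counts per gene with gene lengths, for genes they had already filtered. Removing duplicates can lower the counts of abundant genes. Symbols are lacking for 13 genes.

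Groups, replicates, library numbers and donor tags came from the labels, and tags were read separately in each run of library numbers. That reading is a choice, since WT1 and WT2 occur in both runs and the labels do not say whether they name the same mice. The paper describes the donors of each condition as independent. For the 3 donors with both a media and a lactate library, these were paired by tag. Deviations from the group means correlated across genes at r = 0.374, 0.211 and 0.553 in donors WT1, WT3 and WT2. Numbers in the titles do not all follow the donors (0.374, 0.297, 0.0038 and 0.553). Media 2 and lactate 2 carry different donor tags and still reached 0.297, above donor WT3, so these values do not establish the pairing.

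The filter on low counts asked for 1 CPM in 3 libraries, which 13767 genes met. Counts were scaled by TMM and fitted in 1 quasi-likelihood model of 3 groups in edgeR 4.0.16 (R 4.3.3), with two-sided tests and Benjamini-Hochberg adjustment over all genes tested at a threshold of 0.01. CPM are TMM-scaled, a prior count of 2 entered log2 CPM, TPM are scaled by the table's gene lengths, and SE is the log2 fold change over the root of F. Exact permutation tests used the 70 arrangements of 4 against 4. Alternatives used limma 3.58.1, DESeq2 1.42.0, other scalings, filters, thresholds, blocks and left-out libraries. The scripts were tested on simulated data.

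Coordinates are from GENCODE M21 and promoters from RefSeq, where the most upstream of 2 entries was used for Slfn8. Named genes are the 6 members, other Schlafen genes in the table, the called gene with the largest rise and fall of each list (mean of at least 5 CPM in either group), and the genes with the highest r to each member. Ifi44 and the single CD8+ T cell and myeloid markers, such as Cd8a, Csf1r, Mpeg1 and Csf3r, were named after their values were seen. The result of 1 gene that the rule picks is not reported here. The members and lists were chosen with earlier results of these data known. Markers of NK, dendritic and CD4+ T cells were summed too: in naive libraries they reached 4.58 to 11.0, 76.2 to 156 and 11.2 to 27.1 CPM, and in activated libraries at most 0.820, 4.30 and 0.990.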

Additional observations from a re-analysis of the deposited data

Results flagged for a closer look

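In naive cells 3 members had 1 library far from the other 3, and in each case it was naive 4. Slfn2 was highest there, at 452 CPM against 201 to 217, a gap of 0.903 of the group's range. Slfn5 was lowest there, at 11.4 CPM against 91.4 to 130, with a gap of 0.854 of the range. Slfn9 was also lowest, at 6.39 CPM against 10.3 to 10.6, with a gap of 0.932. All 3 gaps exceed Dixon's critical value for 4 samples, which chance exceeds in about 1 of 20 groups. Naive 4 lay beyond it for 10.6% of all genes tested, so such gaps are not particular to the members. Slfn8 in naive 4, at 30.3 CPM, had a gap of 0.760 and stayed under the critical value.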

How the results depend on the processing

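The members called in lactate against media, 2 in the model reported, were 1 with limma voom, 4 with only the groups compared and 4 with the replicate block by donor, and 1 to 4 when a library was left out. A block by title number left 2. Over all genes, 3451 of 13767 were called in the model reported, 3485 with limma voom and 3256 with the block by title number. With only the groups compared 4603 of 12460 were called, and 3654 of 12460 with the donor block. When a library was left out, 2252 to 4845 genes were called. The direction turned only for Slfn9 in lactate against media, at -0.027 without lactate 1 (-0.027 to 0.22 over the libraries left out). In media against naive cells all 6 members were called under every alternative, and in lactate against naive cells 5 or 6 were. Over all genes tested, 57.5% and 65.0% were called in these comparisons in the model reported. Of 450 fold changes recomputed for the members, 427 kept their direction and side of the threshold, 13 lost the call, 9 gained it and 1 turned. The calls lost were those of Slfn1 in lactate against media in 7 fits, among them limma voom (adjusted p = 0.0242), and of Slfn3 in lactate against naive cells in 6, among them the fit of only the groups compared (0.0151). The replicate block by donor, fitted without the naive libraries, changed no call other than those of Slfn5 and Slfn8. Both calls also changed with only the groups compared and no block. The fit of the low run alone was added after seeing the data. Whether the lactate effect differs between library runs could not be decided, since media 4 was the only media library of the high run. The estimates of this difference ranged from -0.58 for Slfn8 to 0.43 for Slfn3 (log2, high minus low run). Slfn5 in media rests on 30 to 72 counts a library.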
